A study of Mus musculus with 6 samples.

Results

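The BCL2 family genes Bcl2, Bcl2l1, Mcl1, Bcl2l2, Bak1, Bid, Bad, Bmf, Bcl2l11 and Hrk were examined in mouse haematopoietic stem and progenitor cells (HSPCs) with and without Med12. Every probe set that the platform annotation assigned to exactly 1 of these 10 symbols was taken, which gave 36 of the 45037 probe sets tested, 19 for the 4 pro-survival genes and 17 for the 6 pro-death genes. The 10 members are among 18193 genes that have such a probe set. The cells were sorted from bone marrow as lineage-negative cells that carried c-Kit and Sca1, a gate that holds stem cells and multipotent progenitors. The groups were HSPC_control and HSPC_Med12 KO, with 3 arrays each. Knockout mice were Med12Flox;MxCre, so that the floxed Med12 gene is removed by a Cre recombinase under the interferon-inducible Mx promoter, which acts in blood cells and in other interferon-responsive tissues. The labels place both groups on a B6/129 background and at 4 days after pI:pC, an RNA mimic that switches on the interferon response. They do not state the genotype or age of the control mice, whether these carried Cre, or whether the arrays are of different animals, and the p-values therefore cover the spread between these samples only, which may be technical.

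Proteins of the BCL2 family decide whether the outer membrane of the mitochondrion is opened during programmed cell death. BCL2, BCL-XL (from Bcl2l1), MCL1 and BCL-W (from Bcl2l2) protect the membrane, whereas BAK (from Bak1) is an effector that forms pores in it. The BH3-only proteins BID, BAD, BMF, BIM (from Bcl2l11) and HRK pass on death signals by binding the protective proteins or by activating the effectors. MCL1 is needed for the survival of blood stem cells, BCL2 for that of lymphocytes, BCL-XL for maturing red cells and platelets, and BIM removes lymphoid cells that lose cytokine support. MED12 belongs to the kinase module of Mediator, a large co-activator through which transcription factors act on RNA polymerase II.

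The median signal was 26.7 to 26.9 on the control arrays and 16.6 to 21.3 on the knockout arrays, with knockout replicate 3 lowest. Signals are the linear values of the authors' table and have no unit. Med12 had signals of 278.6, 837.4 and 441.6 in controls and 89.1, 100.4 and 86.4 in knockouts, from a single probe set. It is not known whether that set reads the floxed part, and its limma adjusted p was 0.0796. Of 5 measured stem and progenitor markers, Kit, Cd34 and Flt3 had lower signals on all 3 knockout arrays than on any control array. Procr and Slamf1 overlapped between groups by their brightest probe sets, with log2 differences of -0.86 and 0.49. Of the dimmer Slamf1 probe sets, 1 was higher on all 3 knockout arrays (log2 1.60) and 1 overlapped (0.77). Among these markers only Kit is part of the sort gate as described above. Ly6a, which encodes Sca1, was not analysed here. The summed signal of 5 measured markers of mature, lineage-positive cells (Cd3e, Cd4, Cd8a, Ms4a1 and Itgam) ranged from 104.5 to 183.4 on control arrays and from 49.7 to 118.7 on knockout arrays, and the brightest of them, Itgam, had means of 67.6 ± 45.1 and 40.0 ± 34.4 (SD, n = 3 each).

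No member passed the test for a difference between knockout and control cells. Of the 36 probe sets, 0 had an adjusted p under 0.05 in limma's test, where 0.762% of all 45037 probe sets passed (0.542% lower and 0.22% higher in knockouts). The lowest adjusted p among the members was 0.0770, for a Bcl2 probe set. At an unadjusted p under 0.05, 10 members were lower in knockouts and 0 were higher, against 9.89% and 5.81% of all probe sets. The same 10 were the probe sets on which all 3 knockout signals lay below all 3 control signals. They made up 27.8% of the members, and 13.3% of all probe sets lay apart in that direction. In the opposite direction 1 member, a Bad probe set, lay apart, or 2.78%, beside 7.61% of all probe sets. The 10 came from Bcl2 (3 of its 5 probe sets), Mcl1 (4 of 6), Bcl2l11 (2 of 5) and Bmf (1 of 3). Probe sets of a gene share the arrays and may share transcripts, so these counts are not over independent measurements. Taking for each gene only its brightest probe set over the 6 arrays, 0 of the 10 members had an unadjusted p under 0.05, where 18.2% of the 18193 genes read that way did.

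**Figure D1:**
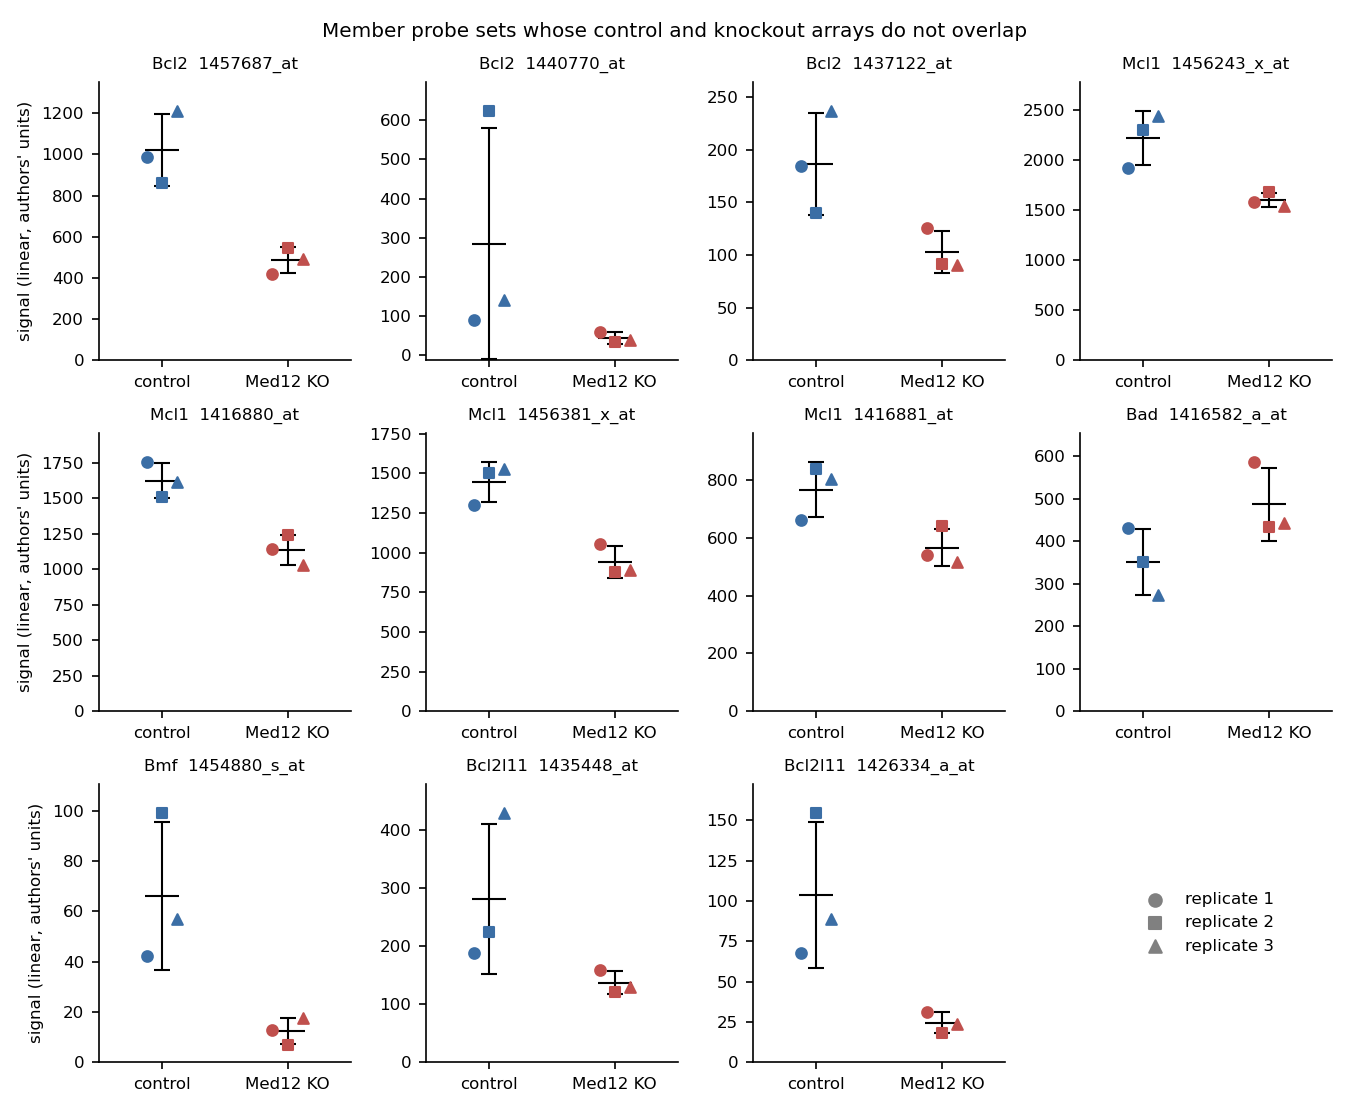
Linear signal (vertical axis, from 0, or below 0 where the error bar reaches there) on each array for the 11 member probe sets whose groups did not overlap. Points are arrays, with a marker shape for each replicate number, and bars are the mean ± SD of 3 arrays. Knockout points lie below all control points on 10 probe sets, of Bcl2, Mcl1, Bmf and Bcl2l11, and above them on 1 probe set of Bad.

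The promoters of the 4 genes with probe sets apart in the lower direction are shown, since these are the members that lay apart together. RefSeq's promoter table (build GRCm38.p6) held all 10 members. The 250 bases before the most upstream listed start are given 5′ to 3′ on the gene's strand, with capitals marking matches on either strand to 7 motifs: GTAAACA (FOXO factors), TGACGT (cAMP-response element core), CCGGAAG (ETS factors), CCAAT (the CCAAT box), GGGCGG (the GC box), TATAAA (the TATA box) and TTCNNNGAA (STAT factors). Matches that touch or overlap appear as 1 run of capitals.
Bcl2, minus strand, chr1:106714291-106714540: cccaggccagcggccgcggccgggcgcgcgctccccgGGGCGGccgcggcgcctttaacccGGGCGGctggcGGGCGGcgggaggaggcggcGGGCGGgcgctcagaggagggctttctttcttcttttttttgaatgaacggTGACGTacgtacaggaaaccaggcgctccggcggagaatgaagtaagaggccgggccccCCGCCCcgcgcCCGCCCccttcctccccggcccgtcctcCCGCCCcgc
Mcl1, plus strand, chr3:95658471-95658720: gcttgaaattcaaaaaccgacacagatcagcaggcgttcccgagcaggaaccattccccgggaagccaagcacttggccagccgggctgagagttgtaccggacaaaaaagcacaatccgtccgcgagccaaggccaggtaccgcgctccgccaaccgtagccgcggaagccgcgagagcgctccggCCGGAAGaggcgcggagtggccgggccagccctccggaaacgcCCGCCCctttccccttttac
Bcl2l11, plus strand, chr2:128125788-128126037: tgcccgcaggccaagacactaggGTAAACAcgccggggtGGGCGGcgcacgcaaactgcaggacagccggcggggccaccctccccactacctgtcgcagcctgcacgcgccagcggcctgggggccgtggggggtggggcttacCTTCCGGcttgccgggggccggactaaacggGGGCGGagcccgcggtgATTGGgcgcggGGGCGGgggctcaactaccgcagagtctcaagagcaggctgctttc
Bmf, minus strand, chr2:118549687-118549936: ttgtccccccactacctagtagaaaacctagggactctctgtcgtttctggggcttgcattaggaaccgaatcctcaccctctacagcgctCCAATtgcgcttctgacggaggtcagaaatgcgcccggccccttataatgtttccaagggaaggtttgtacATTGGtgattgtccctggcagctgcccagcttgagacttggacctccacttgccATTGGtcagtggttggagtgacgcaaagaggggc
The Bcl2 window was 74.8% G or C and held 7 GC boxes and 1 TGACGT, at -107 to -102 from the start. The Bcl2l11 window was 72.0% G or C and held 3 GC boxes, 1 CCGGAAG, 1 CCAAT and 1 GTAAACA, the last at -227 to -221. The Mcl1 window (64.4%) held 1 CCGGAAG and 1 GC box, and the Bmf window (54.0%) held 3 CCAAT matches and 0 GC boxes. Of the 27018 windows of that length, 1 for each gene in the table, 33.0% held GGGCGG, 34.5% CCAAT, 7.07% CCGGAAG, 6.53% TGACGT and 3.06% GTAAACA. The TATA box was in 13.0% of all windows and TTCNNNGAA in 7.14%, and neither was in these 4. A match describes the letters only. No motif searched was shared by all 4 windows: GC boxes were in 3 of them and also in those of Bcl2l2, Bid, Bad and Hrk.

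Bcl2, the founding protective member, was lower in knockouts on each of its 5 probe sets by log2 difference, from -0.37 to -1.91, and from -0.093 to -1.64 after centring each array on its median. Probe set 1457687_at read 988, 862.5 and 1208.4 in controls and 420.5, 547.6 and 492.2 in knockouts. The lowest control signal was well above the highest knockout signal. The means were 1020 ± 175 and 487 ± 63.7 (SD, n = 3 each), 0.477 of the control level, and the log2 difference was -1.04 (SE 0.18, 95% interval -1.47 to -0.60), with a limma adjusted p of 0.0770. With a trended, robust variance prior its adjusted p was 0.0498, the 1 setting of 15 in which a Bcl2 probe set passed, and over all settings it ran up to 0.219.

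The remaining Bcl2 probe sets were less even between arrays. On 1437122_at the controls read 184.1, 139.8 and 236.3 and the knockouts 125.6, 91.5 and 90.9, a log2 difference of -0.76 (SE 0.22; limma adjusted p = 0.195). On 1440770_at control replicate 2 stood at 624 beside 89.2 and 140.8, and the knockouts read 59.8, 32.4 and 38.3. Its log2 difference of -1.91 (SE 0.67) was -1.14 without control replicate 2. On 1443837_x_at control replicate 2, at 26.8, was as low as the knockouts at 42.3, 21.6 and 27, while the other controls read 94.3 and 113.2. The probe set of highest mean signal, 1422938_at, read 1357, 894.2 and 996.8 in controls and 700.7, 1918.4 and 409.8 in knockouts. Knockout replicate 2 was the highest of the 6 arrays there, although it was below every control array on 4 other Bcl2 probe sets. The log2 difference of 1422938_at was -0.37 (95% interval -1.73 to 0.99), and it was -0.97 without that array and 0.12 without knockout replicate 3.

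Mcl1, the short-lived protective protein on which blood stem cells depend, was lower on all 6 of its probe sets as deposited, by log2 differences of -0.22 to -0.61. After median centring 5 of the 6 were below 0, at -0.15 to -0.34, and 1448503_at was at 0.055. Probe set 1456381_x_at read 1300.9, 1503.4 and 1527.5 in controls and 1054.2, 875.4 and 890 in knockouts, a log2 difference of -0.61 (SE 0.14; limma adjusted p = 0.124). Probe set 1416880_at read 1752.3, 1508.2 and 1613.1 in controls and 1139.7, 1238.7 and 1031.3 in knockouts, at 0.700 of the control mean (log2 -0.51; SE 0.13; adjusted p = 0.154). In both cases the replicates of a group lay close together and the groups were apart. On 1456243_x_at the means were 2216 ± 267 and 1601 ± 69.9, and on 1416881_at 766 ± 93.9 and 566 ± 64.9, again with no overlap. On 1437527_x_at knockout replicate 2, at 2105, was just above control replicate 1, at 2052.2, and the other 2 knockouts were below all controls. The log2 difference was -0.43 (95% interval -0.87 to 0.0049). Probe set 1448503_at overlapped, with controls at 1059.6, 1899.3 and 1312.7 and knockouts at 1220.1, 1179.6 and 1158.2, and its log2 difference of -0.22 turned to 0.0075 without control replicate 2. The suffix _x_at, on 3 of these, is given by the array's maker to sets whose probes can also bind other transcripts, and the annotation lists no accession for those 3.

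Bcl2l1, whose product BCL-XL protects red cell precursors and platelets, showed no common direction as deposited, and after median centring its 4 probe sets were at 0.14 to 1.07. The controls on 1426191_a_at were 100.9, 97.4 and 89.1 and the knockouts 122.5, 85.4 and 70.2, so the knockouts spanned the controls on both sides. The log2 difference was -0.07 (95% interval -0.55 to 0.42). Probe set 1420887_a_at had the highest log2 difference of any member, 0.80, but its interval ran from -0.52 to 2.11. Knockout replicates 1 and 2, at 120.4 and 184.5, were above the controls of 68.1, 63.3 and 26.6 there, and knockout replicate 3, at 38.3, was within them. Probe set 1420888_at was at 0.21 (-0.51 to 0.93), and 1426050_at was dim on every array, at 0.7 to 15. On the 3 brighter probe sets knockout replicate 3 was the lowest knockout array.

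Bcl2l2, which encodes the protective protein BCL-W, gave weak signals. Probe set 1423572_at read 112.5, 104.9 and 56.2 in controls and 57, 97.8 and 56.3 in knockouts, with overlap and a log2 difference of -0.30 (95% interval -1.03 to 0.43). The other 3 probe sets were at -0.20, -0.10 and -0.73, and the first and second of these turned to 0.075 and 0.18 after median centring. The last of these, 1430453_a_at, read 5.8, 28.7 and 30.1 in controls against 2.6, 5.3 and 9 in knockouts, near the offset of 16 that was added before log2, which leaves little room for a lower value.

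**Figure D2:**
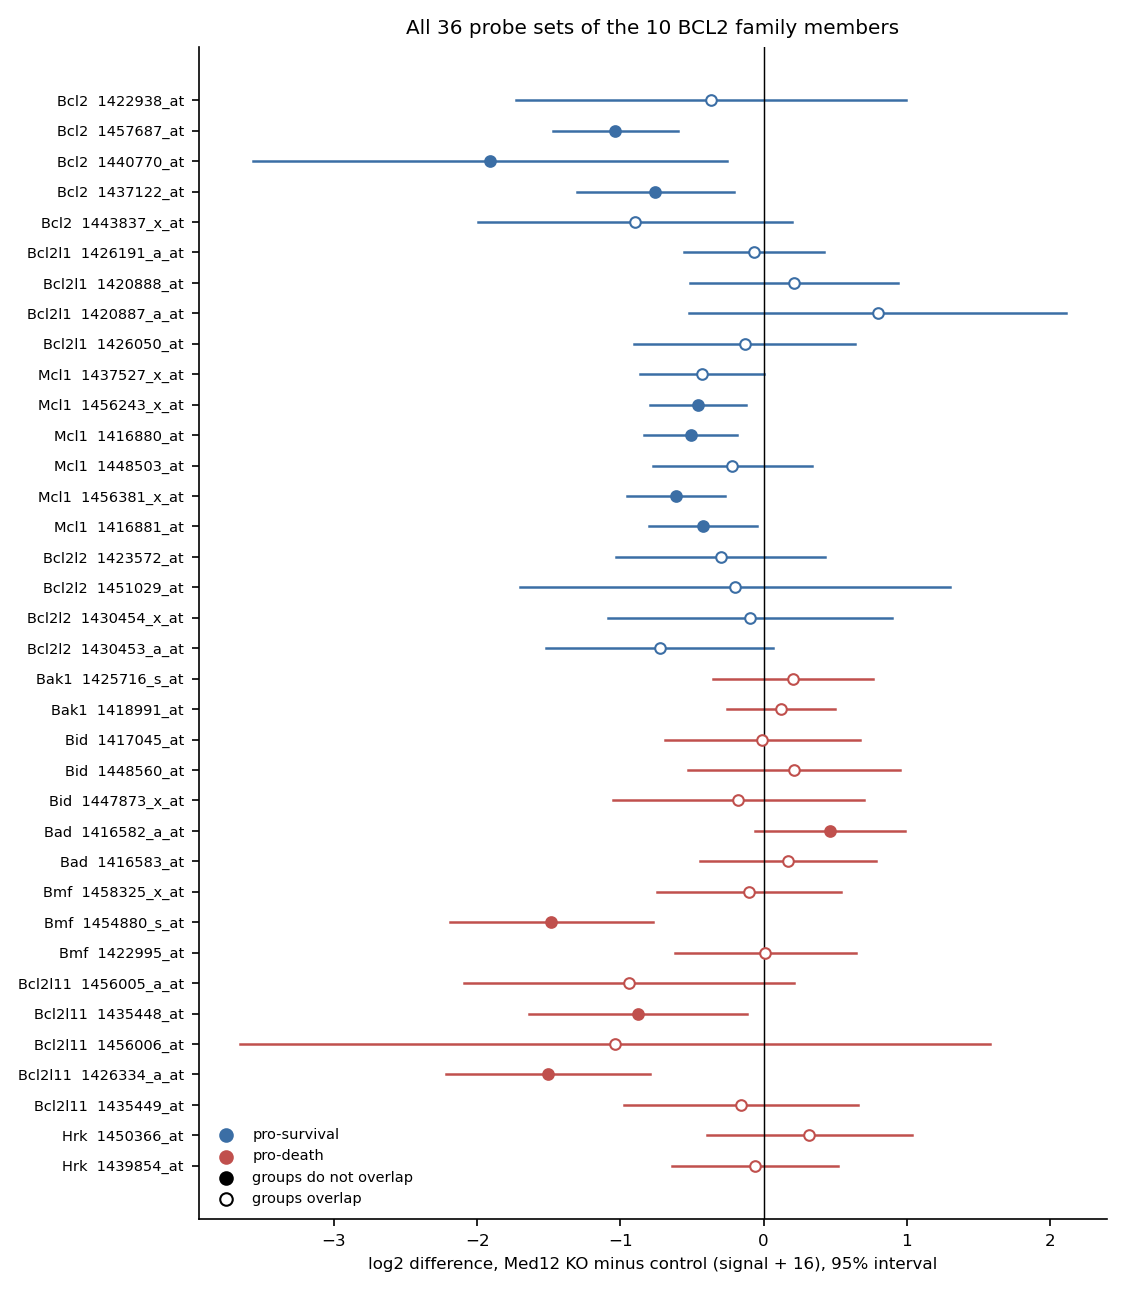
Log2 difference of signal + 16, Med12 KO minus control (horizontal axis), with its 95% interval from limma for each of the 36 probe sets, ordered by gene and then by mean signal. Blue marks pro-survival and red pro-death genes, and filled points mark probe sets whose groups did not overlap. As deposited, Bcl2, Mcl1, Bcl2l2 and Bcl2l11 lie below 0 on every probe set, Bak1 and Bad above 0, and Bcl2l1, Bid, Bmf and Hrk on both sides. After centring each array on its median, 1 probe set of Mcl1, 2 of Bcl2l2 and 1 of Bcl2l11 were above 0.

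Among the BH3-only genes, Bcl2l11 was lower on all 5 probe sets as deposited, and on 4 of them after median centring. Its product BIM is held at low levels by cytokine signals and is induced when they are withdrawn. Probe set 1426334_a_at read 67.6, 154.2 and 88.7 in controls and 31.4, 18.5 and 23.7 in knockouts. The groups were apart, at 0.237 of the control mean (104 ± 45.2 and 24.5 ± 6.49), and the log2 difference was -1.51 (SE 0.29, 95% interval -2.22 to -0.79; limma adjusted p = 0.0945). That adjusted p was 0.0484 without the dimmest 25% of probe sets and 0.0427 without the dimmest 50%, and 0.0427 to 0.242 over all settings. Probe set 1435448_at read 189.2, 225 and 428.7 in controls and 159.9, 121.4 and 130.2 in knockouts, also apart, with a log2 difference of -0.88 (SE 0.31; adjusted p = 0.257). On 1456005_a_at knockout replicate 1, at 355.7, was above 2 of the controls at 302.9, 298.7 and 596, and the other knockouts read 171.8 and 108.7. On 1456006_at control replicate 3, at 1.9, was the lowest of all arrays beside 150.1 and 182.9, and the interval of its log2 difference of -1.04 ran from -3.66 to 1.58. Probe set 1435449_at was dim, at 0.9 to 21.2, with a log2 difference of -0.16.

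Bmf, whose product acts on loss of cell attachment, differed between its probe sets. On 1454880_s_at the controls read 42.2, 98.9 and 57 and the knockouts 12.9, 7.1 and 17.5, at 0.189 of the control mean (66.0 ± 29.4 and 12.5 ± 5.21). The log2 difference of -1.48 (SE 0.29, 95% interval -2.19 to -0.78) had an adjusted p of 0.0949 in limma's test, and it ran from 0.0438 to 0.228 over 15 settings, of which 1 passed. The probe set of highest mean signal, 1458325_x_at, read 117.3, 163.6 and 151.4 in controls and 114.2, 196 and 101.5 in knockouts. The knockouts lay on both sides of the controls there, with a log2 difference of -0.10 (-0.74 to 0.54). The third, 1422995_at, was dim, at 5.6 to 20.6, and was at 0.01. The suffix _s_at marks a set shared by more than 1 transcript, and which transcripts each Bmf set reads is not known here.

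Bak1 and Bid, an effector and the BH3-only protein that links death receptors to mitochondria, overlapped on every probe set. Bak1 read 1294.7, 1066.9 and 1628.5 in controls and 1452.5, 1901.4 and 1252.9 in knockouts on 1425716_s_at, a log2 difference of 0.20 (95% interval -0.35 to 0.76). On 1418991_at it was at 0.12 (-0.26 to 0.50). As deposited, a rise or fall of the size seen for Bcl2 1457687_at lay outside both intervals. After median centring Bak1 was at 0.48 and 0.39 and that Bcl2 probe set at -0.76, and intervals for these are not given here. Bid read 433.8, 242 and 370.9 in controls and 359.1, 254.4 and 418.8 in knockouts on 1417045_at, a log2 difference of -0.01 (-0.69 to 0.67). Its other probe sets were at 0.21 and -0.18.

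Bad, whose product is kept inactive by growth factor kinases, had the 1 member probe set that lay apart in the higher direction. On 1416582_a_at the controls read 430, 350.5 and 273.5 and the knockouts 585.3, 433.1 and 441.9. The gap was narrow, with control replicate 1 just below knockout replicate 2. The means were 351 ± 78.3 and 487 ± 85.4, and the log2 difference of 0.46 (SE 0.21; limma adjusted p = 0.372) did not pass. The second Bad probe set, 1416583_at, overlapped and was at 0.17 (95% interval -0.44 to 0.79). Hrk, a BH3-only gene known mainly from neurons, read between 1.1 and 16 on all arrays and both probe sets, and its log2 differences of 0.32 and -0.06 are between signals of that size.

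Set against each other, the pro-survival probe sets had a median log2 difference of -0.43 and the pro-death probe sets of -0.06, where the median over all 45037 probe sets was -0.07. The first is the value of Mcl1 1416881_at, and Bcl2 and Mcl1 hold 5 and 6 of the 19 pro-survival probe sets. The second is that of Hrk 1439854_at, of mean signal 4.95. Means were under 16 in both groups on 4 of the 17 pro-death and 1 of the 19 pro-survival probe sets, which leaves these little room for a lower value. Of all probe sets 61.2% had a log2 difference below 0. Of the 19 pro-survival probe sets 17 were below 0, 7 lay apart in the lower direction, all of Bcl2 and Mcl1, and 0 in the higher. Of the 17 pro-death probe sets 10 were below 0, 3 lay apart in the lower direction, all of Bcl2l11 and Bmf, and 1 in the higher. With 1 probe set per gene the medians were -0.33 over the 4 pro-survival genes, all below 0 as deposited, and 0.10 over the 6 pro-death genes, 3 of them below 0. Centring each array on its median moved the median of all probe sets to 0.20, that of the pro-survival probe sets to -0.15 and that of the pro-death probe sets to 0.21. The share of higher calls among all calls moved with it, from 28.9% to 62.2%. Centring shifts the difference of every probe set by the same amount, so the gaps between these medians are the same by construction. Quantile normalization, which does not, gave 0.0125 for all probe sets, -0.44 for the pro-survival and 0.061 for the pro-death probe sets. Of the 36 members 27 were below 0 as deposited, 17 after centring and 20 after quantile normalization. The probe sets apart in the lower direction numbered 10, 6 and 11 in these 3 scalings, beside 13.3%, 5.01% and 8.80% of all probe sets, and came each time from Bcl2, Mcl1, Bmf and Bcl2l11.

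Array by array, the median deviation of the 19 pro-survival probe sets from the control mean came to -0.03, 0.11 and 0.04 on control arrays, against -0.47, -0.26 and -0.57 on knockout arrays. The groups were apart on this scale, and knockout replicates 1, 2 and 3 had 14, 13 and 19 of the 19 probe sets below the control mean. All deviations here are of the deposited signals, not centred by array. The median signal of the whole array was 20.6, 21.3 and 16.6 in knockouts and 26.7 to 26.9 in controls. A shift shared by all probe sets is therefore included, and its part in each deviation was not tested. The share of all probe sets below the control mean was not counted by array. For the 17 pro-death probe sets the medians were -0.155, -0.09 and 0.08 in controls and -0.09, 0.05 and -0.12 in knockouts, which overlapped. By gene, the medians of Bcl2 (-0.59, -0.89 and -1.01 in knockouts) and Mcl1 (-0.47, -0.32 and -0.56) lay below all control medians. For Bcl2l11 knockout replicate 1, at -0.09, lay within the controls of -0.31 to 0.25, and replicates 2 and 3 were at -1.07 and -1.52.

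**Figure D3:**
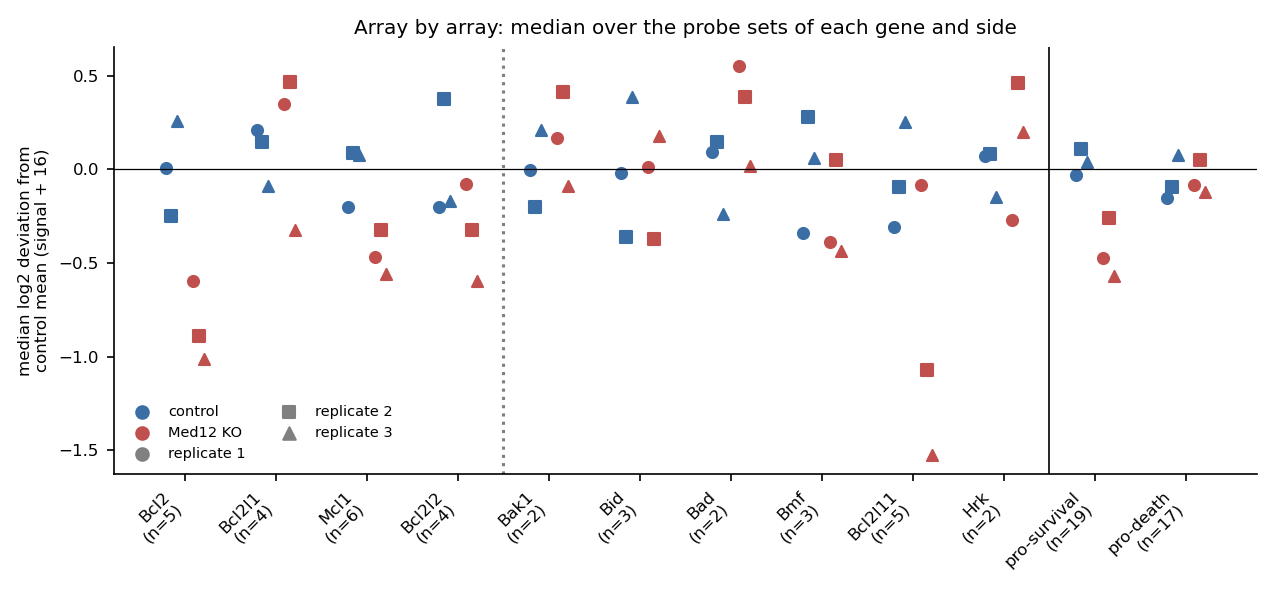
Median over the probe sets of each gene (n in brackets), and over all pro-survival and pro-death probe sets, of the deviation in log2(signal + 16) from the control mean (vertical axis), for each array. Blue points are controls and red points knockouts, with a marker shape for each replicate number. As deposited, knockout medians lie below all control medians for Bcl2, Mcl1 and the pro-survival probe sets together, and overlap the controls for the pro-death probe sets together. The deviations are not centred by array, and the median signal of the whole array was lower on every knockout array than on any control array. Which of these separations would remain after centring was not tested.

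Other genes of the death pathway were read from 5 lists, each gene by its probe set of highest mean. Over all 18193 genes read that way, 0.638% fell and 0.352% rose in limma's test, and 18.2% had an unadjusted p under 0.05 in either direction. Of 10 other BCL2 family genes measured 0 passed, 0 had an unadjusted p under 0.05 and the list median was -0.24. All 10 overlapped between groups, where 23.4% of all genes lay apart in either direction. Pmaip1, which encodes the BH3-only protein NOXA, was at 0.58 (adjusted p = 0.468), and Bbc3, which encodes PUMA, was dim at 20.6 ± 4.47 and 17.2 ± 7.41. The 3 lowest unadjusted p values were those of Bik (-0.33), Bcl2l12 (-0.37) and Bcl2l14 (-0.51). Bax and the Bcl2a1 genes were not analysed here. Of 18 genes of the apoptosome, caspases and their inhibitors, 0 passed, 3 had an unadjusted p under 0.05 and the median was 0.0017. These were Endog, Aifm1 and Cycs, which encode proteins that leave opened mitochondria, and these 3 lay apart in the higher direction. Cycs, the cytochrome c gene, read 2076.1, 1919.3 and 2297.3 in controls and 2424.3, 2941.8 and 3678.5 in knockouts (log2 0.50; adjusted p = 0.277). Endog was at 0.55 and Aifm1 at 0.60.

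The list of death receptor genes also holds a ligand, adaptors, regulators and the TNF receptor gene Tnfrsf1b. Of its 10 measured genes 0 passed, 1 had an unadjusted p under 0.05, beside 18.2% of all genes read that way, and the median was -0.21. Tnfrsf1b, the second TNF receptor, read 567.1, 840.8 and 828 in controls and 274.9, 183.5 and 142.8 in knockouts. The groups were far apart, with a log2 difference of -1.84 (SE 0.28) and a limma adjusted p of 0.0590, which passed in 4 of 15 settings, ran from 0.0208 to 0.188 over them, and was 0.100 to 0.174 when 1 array was left out. Its second probe set overlapped, at -0.45. Tnfrsf1a was at -0.81 and Cflar, which encodes the caspase-8 inhibitor c-FLIP, at -1.09, both with overlap. Control replicate 3 was the highest array for both, and without it they were at -0.52 and -0.51. Of 4 dimmer Cflar probe sets 1 lay apart in the lower direction, at -0.69 (limma adjusted p = 0.181).

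Of 17 regulators of the members 0 passed and 3 had an unadjusted p under 0.05, beside 18.2% of all genes read that way. The list median was -0.12. Nfil3, a repressor linked to cytokine-dependent survival, read 162.2, 117.7 and 211.5 in controls and 23.6, 46 and 79.8 in knockouts (log2 -1.51; limma adjusted p = 0.139). Foxo3, a transcription factor known to induce Bcl2l11, read 1628.1, 1729.9 and 2596.1 in controls and 1158.4, 1322.5 and 859.4 in knockouts (log2 -0.82; adjusted p = 0.205). Its other probe sets were at -0.44 and -0.34. Nfil3 and all 3 Foxo3 probe sets lay apart in the lower direction. Pim2, a kinase that phosphorylates BAD, was higher on all knockout arrays, at 108, 169.2 and 95.9 in controls and 195.9, 221.9 and 205.6 in knockouts (log2 0.71; adjusted p = 0.202). The brighter Pim1, of the same list, lay apart in the lower direction, with means of 1733 and 1359 (log2 -0.36; limma adjusted p = 0.421). Its dimmer probe set overlapped, at -0.11.

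The survival cytokine receptors held the only calls of the 5 lists: of 12 genes, including Jak2 and both Stat5 genes, 2 fell, 1 rose and 9 did not pass. Kit is among the 9 by its brightest probe set (log2 -0.89; limma adjusted p = 0.152), but its dimmer probe set passed (log2 -1.27; adjusted p = 0.0479). Il7r, the receptor through which interleukin-7 maintains BCL2 in lymphoid cells, fell from 311.3, 406.9 and 209.3 to 22.6, 0.4 and 0.5 (log2 -3.85; SE 0.41; limma adjusted p = 0.0314), and its second probe set was at -2.25 (adjusted p = 0.134). Csf1r, the macrophage growth factor receptor, fell from 1131.8, 451.5 and 1270.8 to 60.9, 19.2 and 1.6 (log2 -4.61; adjusted p = 0.0496). Its dimmer probe sets also passed, at -3.73 and -2.13 (limma adjusted p = 0.0303 and 0.0342). Epor, the erythropoietin receptor that maintains BCL-XL in red cell precursors, rose from 88.4, 64.8 and 127.6 to 321.8, 454.3 and 483.1 (log2 2.01; SE 0.27; adjusted p = 0.0471). All 3 calls by brightest probe set were lost whichever array was left out, with limma adjusted p values of 0.0764 to 0.161. Il7r and Csf1r also mark lymphoid and myeloid progenitors and Epor red cell precursors.

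**Figure D4:**
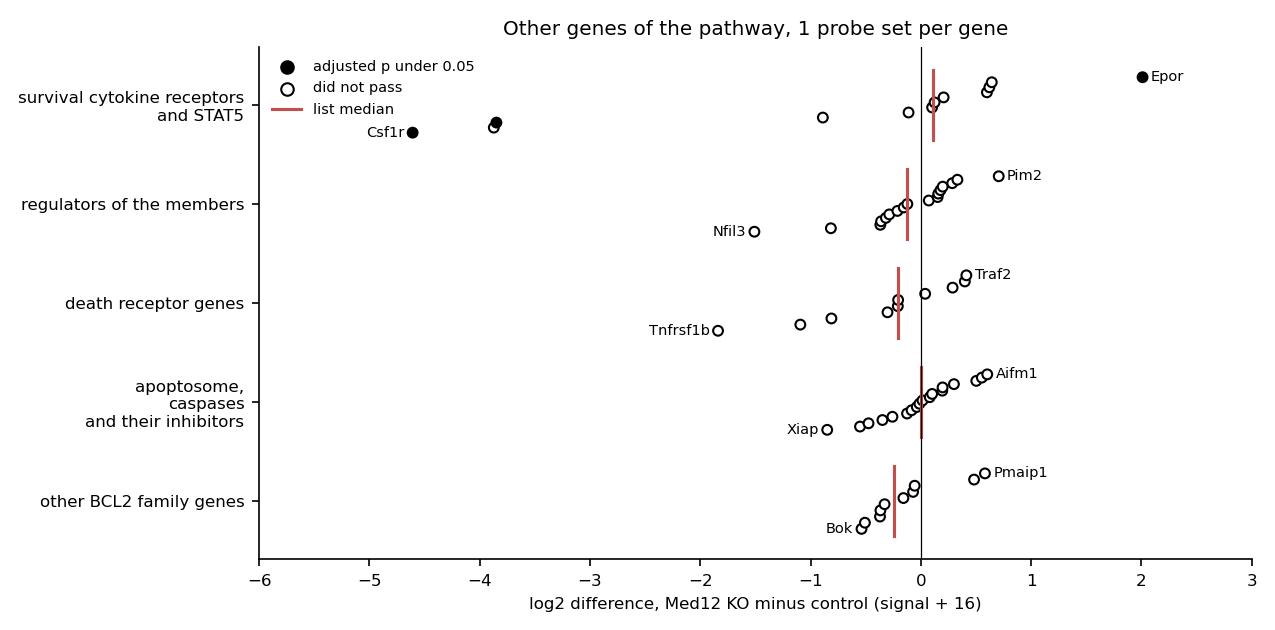
Log2 difference of signal + 16, Med12 KO minus control (horizontal axis), for each measured gene of the 5 lists, 1 probe set per gene. Filled points had an adjusted p under 0.05, red lines are list medians, and the lowest and highest gene of each list is named. Filled points are Csf1r and Il7r, below 0, and Epor, above 0, and all list medians lie between -0.24 and 0.11.

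Markers of other progenitors moved with the same contrast. The summed signal of 5 early lymphoid genes (Dntt, Il7r, Rag1, Rag2 and Satb1) ranged from 3177 to 3876 on control arrays and from 33.5 to 101 on knockout arrays, and 4 of the 5 fell. That of 7 granulocyte-monocyte genes (Mpo, Elane, Prtn3, Ctsg, Csf1r, Irf8 and Cebpa) was 8135 to 15254 and 623.4 to 1498, and 6 of the 7 fell. That of 6 erythroid genes (Gata1, Klf1, Epor, Car1, Car2 and Tfrc) was 3194 to 3831 and 6924 to 10669, and 4 of the 6 rose. That of 5 megakaryocyte genes (Itga2b, Pf4, Gp9, Gp1bb and Vwf) was 3053 to 4451 and 4657 to 6063, and 1 of the 5, Itga2b, rose. Gp1bb lay apart in the higher direction without passing (log2 1.61), and Pf4, Gp9 and Vwf overlapped between groups (0.10, 0.15 and 0.19). These marker calls are part of the 343 over all probe sets, a count that was at most 10 when any 1 array was left out. In sorted cells measured in bulk, fewer cells of a type and less RNA per cell cannot be told apart. The part of these marker differences in the signals of Bcl2, Mcl1, Bcl2l11 and Bmf was not tested.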

How the data were processed

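The table that the authors deposited gives 1 linear signal intensity for each probe set and array. RMA stands in the submitters' processing notes, yet RMA yields log2 values, and these intensities are linear with an equal trimmed mean (2% at each end) of 150 on all arrays, so how they were made is not known here. Per the labels, 5 ng of total RNA was amplified and biotin-labelled with NuGEN Ovation kits.

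Signals were taken as log2(signal + 16), which understates differences of dim genes. Means and SDs are of the deposited signals. After 64 control probe sets were left out, 45037 were tested, of which a platform annotation of 2016 names 34945 with 1 symbol. limma 3.58.1 (R 4.3.3; lmFit, eBayes; two-sided; 4 residual and 1.96 prior degrees of freedom) compared the groups, and p was adjusted by Benjamini-Hochberg over all tested probe sets, with a threshold of 0.05. The number of arrays limits the precision. The members and lists were chosen with earlier results of these data known. All members are described. Of each list the genes that passed are named, or up to 3 by unadjusted p. Pmaip1, Bbc3, Pim1, Kit, Slamf1 and Procr were named outside that rule, with their values known. The limma fit was checked on simulated data. Alternatives changed the variance prior, array weights, scaling, offset (1 and 64), filter, arrays and probe set choice, or added a replicate block. Counts of probe sets apart under other scalings and without each array were added after the data were seen.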

Additional observations from a re-analysis of the deposited data

How the results depend on the processing

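In limma's test, 0 of all probe sets passed under the replicate block, where 343 passed without it (6752 and 7067 at an unadjusted p under 0.05; 14 and 10 of the members), and the Il7r, Epor and Csf1r calls were lost (adjusted p = 0.153, 0.153 and 0.159). Deviations of arrays with the same replicate number correlated at 0.019, 0.0193 and 0.00193, so the numbers were not taken to pair samples. Leaving out 1 array gave 0 to 10. Median centring gave 693, an offset of 1 gave 42, and filters on the dimmest 25% and 50% gave 712 and 763. Of the members 1 passed with a trended and robust prior, 1 without the dimmest 25% and 2 without the dimmest 50%. None passed without any single array. Probe sets apart in the lower direction numbered 6 after median centring and 11 to 15 without 1 array, beside 17.6% to 21.1% of all probe sets then, since fewer arrays overlap less often. The median of the pro-survival probe sets was -0.15 after median centring and -0.52 to -0.36 without 1 array. That of the pro-death probe sets was 0.21 after median centring, 0.061 after quantile normalization, 0.10 with 1 probe set per gene and -0.16 to 0.04 without 1 array. Member probe sets whose log2 difference changed sign did so from values that had not passed, and the cause was not tested. After median centring these were Bcl2l1 1426191_a_at (0.21), Bcl2l1 1426050_at (0.14), Mcl1 1448503_at (0.055), Bcl2l2 1451029_at (0.075), Bcl2l2 1430454_x_at (0.18), Bid 1417045_at (0.27), Bid 1447873_x_at (0.10), Bmf 1458325_x_at (0.17), Bcl2l11 1435449_at (0.11) and Hrk 1439854_at (0.21), which that shift of all probe sets by construction moves up. After quantile normalization they were Bcl2l1 1426191_a_at (0.12), Bcl2l2 1451029_at (0.0028), Bcl2l2 1430454_x_at (0.10), Bid 1447873_x_at (0.065), Bmf 1458325_x_at (0.0045), Bcl2l11 1435449_at (0.061) and Hrk 1439854_at (0.018). With array weights they were Bid 1417045_at (0.0018) and Bmf 1422995_at (-0.014), and with an offset of 1 Bmf 1422995_at (-0.0011). Without 1 array, the ranges of those that changed sign were Bid 1417045_at (-0.24 to 0.18), Bmf 1422995_at (-0.17 to 0.21), Hrk 1439854_at (-0.27 to 0.10), Bcl2l1 1426050_at (-0.42 to 0.043), Mcl1 1448503_at (-0.41 to 0.0075), Bcl2l2 1451029_at (-0.82 to 0.18), Bcl2l2 1430454_x_at (-0.45 to 0.19), Bid 1447873_x_at (-0.42 to 0.19), Bid 1448560_at (-0.055 to 0.40), Bcl2l11 1435449_at (-0.36 to 0.20), Bcl2 1422938_at (-0.97 to 0.12), Bcl2l1 1426191_a_at (-0.26 to 0.085) and Bmf 1458325_x_at (-0.36 to 0.065). None of the settings run changed the sign of the 10 probe sets apart in the lower direction. For groups that do not overlap, this is fixed by construction in every setting except median centring and quantile normalization. A probe set near or under a signal of 16 has little room for a lower value.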
